A study of Litchi chinensis with 18 samples.

Results

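The stamens of the functionally female flower were set against those of the functionally male flower of litchi (Litchi chinensis, cultivar 'Feizixiao'), a subtropical fruit tree whose panicles carry several flower types. The comparison takes 6 of the 18 RNA-seq libraries of the series, 3 of F-stamen and 3 of M-stamen, chosen by their labels, and the test ran over all loci of the count table that passed a filter on low counts. F-stamen is the rudimentary stamen of the full-bloom functionally female flower, which has a well-developed pistil and anthers that do not open. M-stamen is the stamen of the functionally male flower (upper-case M) whose rudimentary pistil is unobvious. The remaining 12 libraries hold the stamens of the other male flower (lower-case m, with a rudimentary but obvious pistil; m-stamen) and the carpels of all 3 flower types (F-carpel, M-carpel and m-carpel). No treatment, mutation or transgene was involved. The flower types bloom in succession on the tree, so flower type and time of bloom cannot be told apart. Nothing in the labels says whether the 3 samples of an organ came from separate trees, so p-values measure only the spread between these samples. The paper states that material was taken in triplicate from differently facing sides of the tree, and gives no number of trees.

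A stamen consists of a filament and an anther, and its identity is set by MADS-box transcription factors of the B class (APETALA3 and PISTILLATA) and C class (AGAMOUS) acting with SEPALLATA partners of the E class. Inside the anther, the tapetum is a short-lived nurse tissue that feeds the microspores and delivers the material of the pollen wall, while the endothecium thickens its walls so that the anther can split. In Arabidopsis, jasmonate, gibberellin and auxin control filament elongation, pollen maturation and anther opening. A library from a whole stamen pools all of these tissues, and fewer cells of a type cannot be told apart from less RNA per cell.

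The 6 libraries held 27940914 to 30920017 counts each, and 25469 to 25655 loci had at least 1 count in F-stamen, against 24515 to 24735 in M-stamen. Pearson correlations of log2 values over loci were 0.987 to 0.988 within an organ and 0.932 to 0.935 between F-stamen and M-stamen. Each pair of replicates differed by more than counting error, with a chi-square statistic per locus of 8.74 to 9.98 in F-stamen and 11.7 to 39.5 in M-stamen, so none was counted as a duplicate. M-stamen replicate 1 stood apart for a few unannotated loci. newGene_662 had 488, 888 and 477 CPM (counts scaled to library size, TMM-normalised) in the 3 F-stamen libraries, against 8582, 712 and 832 CPM in the 3 M-stamen libraries, and averaged 12069 CPM in M-carpel. newGene_6311 had 425, 967 and 448 CPM in F-stamen and 8679.7, 670.4 and 585 CPM in M-stamen, and averaged 11794 CPM in M-carpel. These M-carpel means do not describe each library. The 5 most counted loci together held 1.88% of M-carpel replicate 1, against 5.97% and 4.88% of replicates 2 and 3. Neither passed the test (edgeR FDR = 0.0465 and 0.0559). The summed level of the listed carpel and ovule regulators was 132, 135 and 126 CPM in F-stamen, against 185, 185 and 189 CPM in M-stamen replicates 1, 2 and 3. This sum cannot gauge carpel tissue, because its members differ in where they are high. CRABS CLAW (LITCHI005346) averaged 63.2 CPM in M-stamen and 33.9 CPM in M-carpel. The SPATULA locus LITCHI006903 averaged 38.4 CPM in M-stamen and 169 CPM in M-carpel. Whether carpel tissue took part in the counts of newGene_662 and newGene_6311 was not tested.

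F-stamen differed from M-stamen at 4610 of 24666 loci tested (18.7%), 2612 of them higher in F-stamen (10.6% of all loci tested) and 1998 lower (8.1%). A locus was called where edgeR's quasi-likelihood test gave a Benjamini-Hochberg adjusted p (FDR) under 0.01 and the level differed at least 2-fold. Without M-stamen replicate 1 the count was 4152. At a log2 fold change of at least 2 in size, 884 loci were higher and 733 lower. The loci lower in F-stamen tended to be more highly expressed: the median level over the 6 libraries was 6.46 CPM for the loci that were higher and 16.99 CPM for those that were lower, and above 32 CPM 435 loci were higher and 769 lower. The plot of level against fold change shows this asymmetry. Log2 fold changes are given as F-stamen minus M-stamen throughout, and their median over all loci tested was 0.18. The share of called loci that were higher in F-stamen, 56.7%, depended on the processing. It was 64.2% with total counts in place of TMM, where the median over all loci was 0.28. It was 50.5%, with a median of 0.06, when only the organs compared were fitted, which changed the filter, the scaling and the estimate of spread together. Leaving out F-stamen replicate 3, F-carpel replicate 2 or M-carpel replicate 3 gave 44.5%, 46.8% and 47.0%, with 1792 higher and 2237 lower loci without F-stamen replicate 3.

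**Figure D1:**
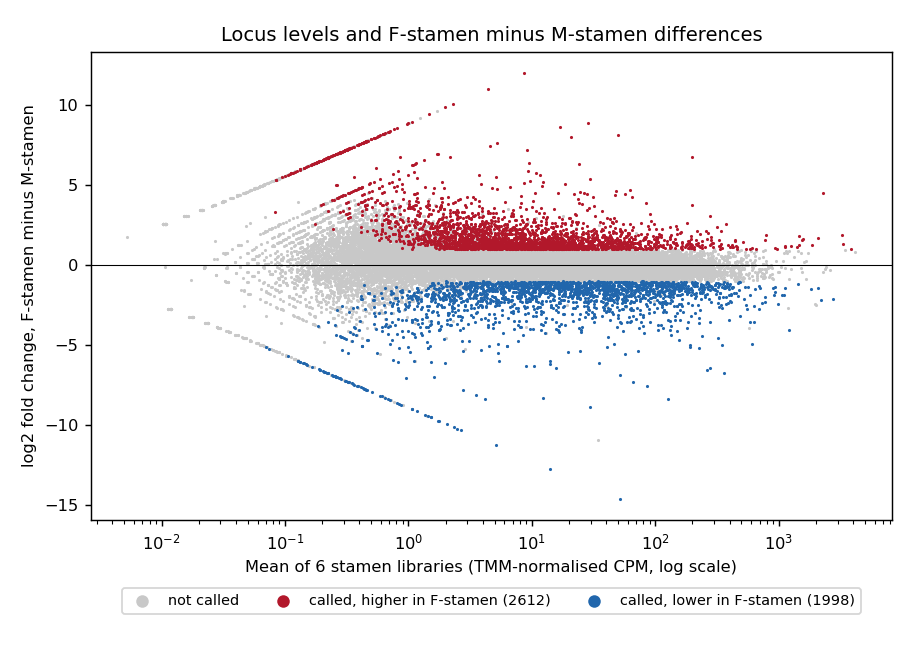
Each point is a locus tested, placed by its mean over the 6 stamen libraries (TMM-normalised CPM, log scale) and its log2 fold change, F-stamen minus M-stamen; red points are the 2612 loci called higher in F-stamen, blue points the 1998 called lower and grey points those not called. Above 32 CPM, called loci lie more often below 0 (769) than above it (435), and the straight outer rows are loci without a count in 1 of the 2 organs.

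MADS-box genes of the floral homeotic model were expressed in both stamens, most of them at levels within 2-fold of each other. Of the 11 floral MADS genes, 1 was called higher in F-stamen (LcAP3-2) and 3 lower (LcAP1, LcSEP1 and LcSEP4), against 10.6% and 8.1% over all loci tested, and their median log2 fold change was -0.55 against 0.18 over all loci. LcPI (LcMADS50, LITCHI011302), the PISTILLATA gene of the B class, had 547, 559 and 547 CPM in F-stamen, against 947, 887 and 976 CPM in M-stamen. The groups did not overlap, yet the difference stayed under 2-fold (log2 fold change -0.76, SE 0.12, edgeR FDR = 2.82e-05). Such separation was common, since at 62.8% of all loci tested the 3 F-stamen and 3 M-stamen values did not overlap. LcAG (LcMADS65, LITCHI028933), the C class gene that specifies stamens and carpels, had 212, 203 and 209 CPM in F-stamen and 288, 301 and 297 CPM in M-stamen, again without overlap and under 2-fold (log2 fold change -0.51, SE 0.04, edgeR FDR = 6.03e-09). In FPKM, fragment counts scaled by transcript length and library size, LcPI was the most abundant of the 11 in both organs, at 409 ± 3.16 FPKM in F-stamen and 643 ± 28.7 FPKM in M-stamen (SD, n = 3 each).

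The litchi genome holds 2 APETALA3-type genes of the B class among the 11, and their F-stamen to M-stamen differences had opposite signs. LcAP3-2 (LcMADS45, LITCHI010203) had 8.97, 9.87 and 9.33 CPM in F-stamen and 3.89, 3.53 and 3.26 CPM in M-stamen, all F-stamen values above all M-stamen values (log2 fold change 1.40, SE 0.15, edgeR FDR = 5.24e-07). LcAP3-1 (LcMADS75, LITCHI006530) was far more abundant and had 347, 353 and 348 CPM in F-stamen, against 522, 526 and 524 CPM in M-stamen, lower in each F-stamen library but not called at 2-fold (log2 fold change -0.59, SE 0.05, edgeR FDR = 2.28e-08). Per length, LcAP3-2 reached 7.77 ± 0.347 FPKM in F-stamen and LcAP3-1 220.3 ± 1.296 FPKM (SD, n = 3 each), so the gene that rose stayed the minor copy. The first 180 bases of their coding sequences, which code for 60 residues at the start of the proteins where the DNA-binding MADS domain lies, are shown to show how far the copies differ. Capitals mark the bases that differ.
LcAP3-2: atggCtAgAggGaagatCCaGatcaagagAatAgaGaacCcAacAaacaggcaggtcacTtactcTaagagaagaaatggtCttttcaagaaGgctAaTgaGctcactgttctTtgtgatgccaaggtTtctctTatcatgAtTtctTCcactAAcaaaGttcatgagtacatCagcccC
LcAP3-1: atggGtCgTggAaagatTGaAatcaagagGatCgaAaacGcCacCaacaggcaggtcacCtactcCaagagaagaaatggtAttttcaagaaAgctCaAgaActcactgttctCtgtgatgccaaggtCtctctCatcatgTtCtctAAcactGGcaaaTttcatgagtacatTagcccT
The pair differed at 32 of these 180 bases (82.2% identical), the longest identical run was 15 bases, and no stretch of 50 bases was shared over the first 399 coding bases of either gene. They lie on different chromosomes, LcAP3-2 on chromosome 8 and LcAP3-1 on chromosome 11, as the study's gene list gives them.

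LcSEP1 (LcMADS100, LITCHI019333), an E class partner gene, fell to 207, 205 and 208 CPM in F-stamen, against 442, 468 and 482 CPM in M-stamen (log2 fold change -1.17, SE 0.07, edgeR FDR = 3.11e-10). LcSEP4 (LcMADS73, LITCHI023328), of the same class, had 8.79, 9.35 and 7.75 CPM in F-stamen and 20.4, 16.8 and 19.2 CPM in M-stamen (log2 fold change -1.13, SE 0.08, edgeR FDR = 4.67e-09). LcAP1 (LcMADS95, LITCHI005352), an A class gene known for flower meristem and sepal identity, had 4.93, 5.61 and 4.0 CPM in F-stamen and 15.4, 15.3 and 15.2 CPM in M-stamen (log2 fold change -1.66, SE 0.17, edgeR FDR = 2.19e-07). In all 3 genes every F-stamen library lay below every M-stamen library. LcSEP3 (LcMADS91, LITCHI004634) had 420.4, 406 and 438 CPM in F-stamen, against 328, 348 and 347 CPM in M-stamen, a difference under 2-fold in the other direction (log2 fold change 0.31, SE 0.04, edgeR FDR = 4.08e-06). LcSEP2, LcSTK and LcSHP were not called, and LcSTK, the ovule identity gene of the D class, was close to absent, at 1.13, 1.04 and 1.17 CPM in F-stamen and 0.601, 0.612 and 0.839 CPM in M-stamen, against a mean of 44.5 CPM in F-carpel.

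**Figure D2:**
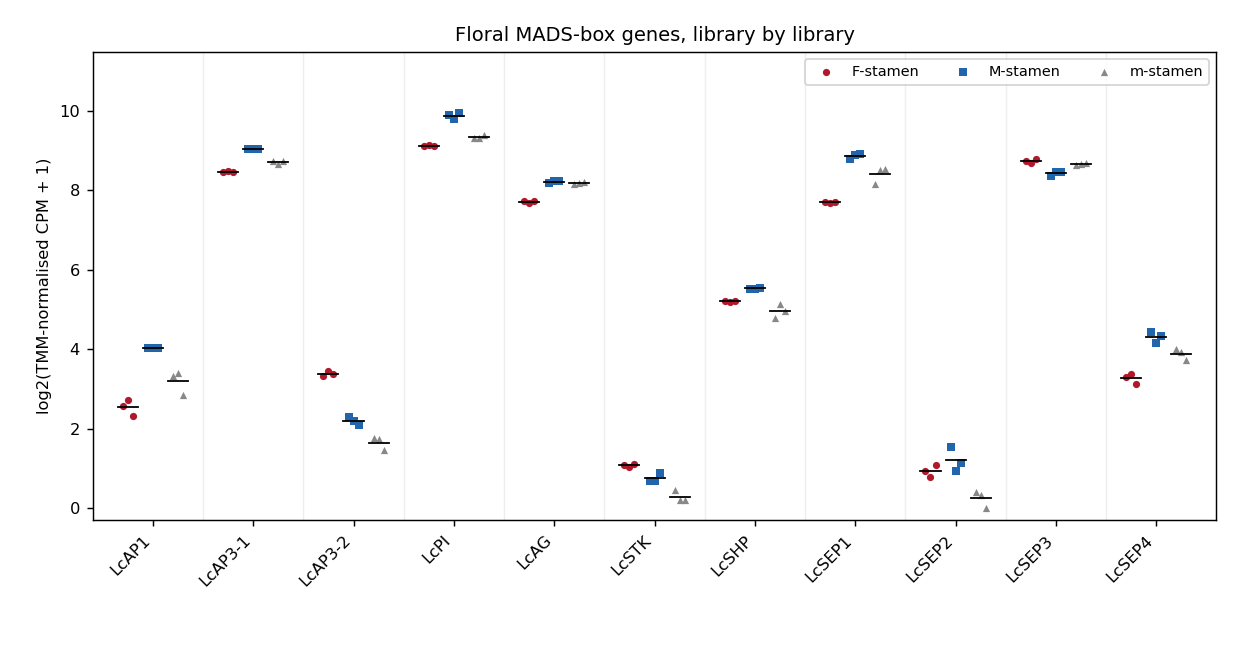
Levels of the 11 floral MADS genes as log2 of TMM-normalised CPM plus 1; each point is a library, with F-stamen (red circles), M-stamen (blue squares) and m-stamen (grey triangles) side by side, and the bar is the mean of 3. LcAP3-2 is higher in F-stamen (8.97 to 9.87 CPM) than in M-stamen (3.26 to 3.89 CPM), while LcPI, LcAP3-1, LcAG, LcSEP1, LcSEP4 and LcAP1 are lower in F-stamen.

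The LcMADS family as a whole was called about as often as all loci. Of its 101 loci, 37 had no count in the 6 libraries, 44 were tested, 4 were called higher in F-stamen and 4 lower (9.1% each, against 10.6% and 8.1% over all loci), with a median log2 fold change of 0.01. The higher calls numbered 2 without F-stamen replicate 2, M-stamen replicate 1 or F-carpel replicate 2 and also with the replicate block, and the median was -0.15 without F-stamen replicate 2. LcMADS85 (LITCHI020322) had 7.84, 8.67 and 9.94 CPM in F-stamen, against 1.17, 0.576 and 1.41 CPM in M-stamen (log2 fold change 3.06, SE 0.62, edgeR FDR = 0.000475). LcMADS9 (LITCHI025595), annotated as AGL6, whose relatives act in flower organ identity, had 13.6, 13.3 and 14.5 CPM in F-stamen and 46.4, 45.5 and 44.2 CPM in M-stamen (log2 fold change -1.72, SE 0.10, edgeR FDR = 1.7e-10). Neither gene's groups overlapped.

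Among loci averaging at least 32 CPM, none of the 8 largest rises in F-stamen carried a pollen annotation. LITCHI011995, annotated as a beta-1,3-galactosyltransferase, an enzyme type that adds galactose to cell wall proteins, had 98.3, 93.7 and 106 CPM in F-stamen and 0.531, 0.396 and 0.101 CPM in M-stamen (log2 fold change 8.18, SE 0.29, edgeR FDR = 2e-13). The F-carpel mean of this locus was 273 CPM. LITCHI015694, a cysteine proteinase inhibitor, had 379.8, 395 and 417 CPM in F-stamen, against 2.76, 3.89 and 4.13 CPM in M-stamen (log2 fold change 6.79, SE 0.25, edgeR FDR = 3.84e-13). In all other organs but F-stamen and M-stamen its mean was at most 1.73 CPM. LITCHI013178, an MLO-like membrane protein, was among the most abundant transcripts of the F-stamen, with 4216, 4538 and 4492 CPM there and 203, 187 and 181 CPM in M-stamen (log2 fold change 4.54, SE 0.08, edgeR FDR = 2.92e-17). All F-stamen values lay far above all M-stamen values in each of these loci. The other 5 were a pathogenesis-related protein 1B (LITCHI001380), a triose phosphate translocator (LITCHI029133), DNA topoisomerase 3-alpha (LITCHI020853), a DMR6-like oxygenase (LITCHI001230) and a pentatricopeptide repeat protein (LITCHI020967), with log2 fold changes of 4.27 to 4.74. LITCHI001380 was also high in m-stamen (mean 145 CPM), whereas the other 4 averaged at most 5.09 CPM there.

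The 8 largest falls included 1 locus without a count in F-stamen. LITCHI027449, annotated as NUCLEAR FUSION DEFECTIVE 4, had no count in the 3 F-stamen libraries, against 110.3, 99 and 100.4 CPM in M-stamen, at least 3263.9-fold lower when the F-stamen group is set to 3 counts over its 3 libraries. LITCHI004398, a polygalacturonase, an enzyme that cuts pectin, had 0.704, 1.01 and 0.603 CPM in F-stamen and 260.1, 246 and 253 CPM in M-stamen (log2 fold change -8.35, SE 0.28, edgeR FDR = 8.81e-14). LITCHI002550, flavonoid 3'-monooxygenase, which hydroxylates the flavonoid ring, had 0.643, 1.34 and 0.762 CPM in F-stamen, against 163, 171 and 181 CPM in M-stamen (log2 fold change -7.55, SE 0.29, edgeR FDR = 5.73e-13). Both were at 1.34 CPM or less in every F-stamen library and at 163 CPM or more in every M-stamen library. The other 5 were a sulfite exporter family protein (LITCHI030600), peroxidase 11 (LITCHI005410), an asparagine-tRNA ligase (LITCHI026987), a patatin-like lipid hydrolase (LITCHI011071) and the membrane protein DMP10 (LITCHI003901), with log2 fold changes of -6.43 to -7.27. DMP10 averaged 6.42 ± 0.458 CPM in F-stamen and 553 ± 5.02 CPM in M-stamen, and the patatin-like locus 5.56 ± 0.892 CPM in F-stamen and 518 ± 18.6 CPM in M-stamen (SD, n = 3 each).

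The 5 most counted loci of the F-stamen were a lectin, a pair of pectin enzymes, a proton pump and an L-ascorbate oxidase homolog, and the 5 of the M-stamen were other loci. Of those, newGene_662 and newGene_6311 ranked there through M-stamen replicate 1 alone, as given above; in M-stamen replicates 2 and 3 the polygalacturonase newGene_82, the L-ascorbate oxidase homolog and ATPase 8 lay above both. The lectin (newGene_2823) had 5329, 4797 and 5319 CPM in F-stamen, against 1323, 1473 and 1418 CPM in M-stamen (log2 fold change 1.87, SE 0.08, edgeR FDR = 1.64e-12). Pectinesterase 50 (LITCHI020207), of the enzymes that remove methyl groups from pectin, had 4794, 4922 and 4459 CPM in F-stamen and 1800.2, 1842 and 2021 CPM in M-stamen (log2 fold change 1.32, SE 0.08, edgeR FDR = 2.5e-10). An L-ascorbate oxidase homolog (LITCHI029916) had 5119, 5361 and 4945 CPM in F-stamen and 2583, 2342 and 2664 CPM in M-stamen, at the 2-fold limit (log2 fold change 1.02, SE 0.08, edgeR FDR = 1.78e-08). Its call was lost under 9 alternatives (log2 fold changes 0.89 to 0.99), among them those without F-stamen replicate 2 or 3, M-stamen replicate 2, F-carpel replicate 2 or M-carpel replicate 3. A polygalacturonase (newGene_82) and the plasma membrane proton pump ATPase 8 (LITCHI016279) were higher in each F-stamen library but under 2-fold (log2 fold changes 0.85 and 0.95). Apart from the lectin, these loci were higher still in m-stamen, at means of 6839 to 7918 CPM. In M-stamen the most counted annotated loci were vignain (LITCHI022533), a cysteine protease known from dying plant tissue, and sucrose synthase (LITCHI017476), which cleaves sucrose. Vignain had 1026, 1050.3 and 1071 CPM in F-stamen, against 4487, 4538 and 4453 CPM in M-stamen (log2 fold change -2.10, SE 0.05, edgeR FDR = 4.09e-15). Sucrose synthase had 1134, 1144 and 1080.2 CPM in F-stamen and 3122, 2937 and 3032 CPM in M-stamen (log2 fold change -1.44, SE 0.04, edgeR FDR = 1.67e-14). Both were lower in every F-stamen library.

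Regulators of the tapetum were detected in both stamens, and a bHLH factor nearly absent from M-stamen changed most. Of 15 listed loci 11 were tested, 4 were called higher in F-stamen and 1 lower (36.4% and 9.1%, against 10.6% and 8.1% over all loci), with a median log2 fold change of 1.08 (0.48 to 2.75 over the alternatives). LITCHI002043, annotated as ABORTED MICROSPORES, a bHLH factor that Arabidopsis needs for tapetum function, had 34.3, 34.7 and 33.01 CPM in F-stamen, against 0.106, 0.144 and 0 CPM in M-stamen (log2 fold change 8.63, SE 0.85, edgeR FDR = 4.8e-07). None of the m-stamen libraries held a count of it. A second locus with that annotation, LITCHI004937, had 5.48, 4.59 and 3.56 CPM in F-stamen and 1.27, 0.396 and 1.34 CPM in M-stamen and did not pass (FDR = 0.0212). Loci annotated as bHLH91, a tapetum factor of the same family, split: LITCHI025266 had 32.4, 31.1 and 29.97 CPM in F-stamen and 1.31, 1.295 and 1.41 CPM in M-stamen (log2 fold change 4.54, SE 0.31, edgeR FDR = 1.36e-09), while LITCHI011739 had 21.2, 21.4 and 23.1 CPM in F-stamen and 44.8, 46.2 and 47.1 CPM in M-stamen (log2 fold change -1.07, SE 0.12, edgeR FDR = 6.7e-07). Neither pair of groups overlapped, though the call of LITCHI011739 was lost under 3 alternatives. MYB80 (LITCHI013621), which acts late in the tapetum of Arabidopsis, had 3.09, 1.27 and 1.87 CPM in F-stamen, against 2.79, 3.42 and 2.89 CPM in M-stamen, with overlapping groups.

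Genes of the pollen wall were called in both directions. Of 32 loci tested, 4 were called higher in F-stamen and 4 lower (12.5% each, against 10.6% and 8.1% over all loci), with a median log2 fold change of 0.47, and the summed level was 1382, 1374 and 1346 CPM in F-stamen, against 1453, 1389.9 and 1379.8 CPM in M-stamen. With a filter of at least 5 CPM over the 18 libraries, 3 of the 4 that rose were left out and the other was not called. CYP703A2 (LITCHI026872), a cytochrome P450 that makes sporopollenin precursors, had 6.37, 4.63 and 5.43 CPM in F-stamen, against 1.63, 0.971 and 1.31 CPM in M-stamen (log2 fold change 2.07, SE 0.43, edgeR FDR = 0.000625). Loci annotated as ABCG9, a transporter of the pollen coat in Arabidopsis, went in opposite directions. LITCHI029253 had 22.4, 22.9 and 22.8 CPM in F-stamen and 0.495, 0.216 and 0.604 CPM in M-stamen (log2 fold change 5.67, SE 0.53, edgeR FDR = 7.82e-08). LITCHI013206 had 5.79, 7.104 and 6.54 CPM in F-stamen and 90.9, 94.8 and 91.1 CPM in M-stamen (log2 fold change -3.83, SE 0.11, edgeR FDR = 1.43e-14), and its m-stamen mean was 343 CPM. Each had groups that stood far apart. ABCG16 (LITCHI027956), also tied to the pollen wall in Arabidopsis, had 67.1, 68.4 and 65.9 CPM in F-stamen, against 414, 343 and 377 CPM in M-stamen (log2 fold change -2.49, SE 0.07, edgeR FDR = 6.7e-15).

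Genes of surface lipids, which build the cuticle and the pollen coat, changed in both directions. Among 141 loci tested 27 were called higher in F-stamen and 31 lower (19.1% and 22.0%, against 10.6% and 8.1% over all loci), with a median log2 fold change of -0.24. A non-specific lipid-transfer protein (LITCHI026889) had 39.1, 41.2 and 43.3 CPM in F-stamen and 0.0707, 0.324 and 0.0672 CPM in M-stamen (log2 fold change 8.04, SE 0.53, edgeR FDR = 4.76e-09). EXL3 (LITCHI010088), a GDSL lipase whose Arabidopsis relatives lie in the pollen coat, had 19.01, 16.8 and 20.5 CPM in F-stamen, against 0.283, 0 and 0.369 CPM in M-stamen (log2 fold change 6.39, SE 0.69, edgeR FDR = 1.43e-06). Both were near 0 in M-stamen and in m-stamen, where they averaged 0.187 and 0.190 CPM. LITCHI021289, an omega-hydroxypalmitate feruloyl transferase of suberin-type polymers, had 1.01, 0.489 and 0.921 CPM in F-stamen and 18.2, 15.3 and 15.01 CPM in M-stamen (log2 fold change -4.32, SE 0.31, edgeR FDR = 2.32e-09).

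Transcripts annotated to pollen and the pollen tube were more abundant in the rudimentary F-stamen than in M-stamen. Of 44 loci tested 21 were called higher (47.7%, against 10.6% over all loci) and 2 lower, with a median log2 fold change of 1.06 against 0.18 over all loci. Their summed level was 10119.9, 10421 and 9899 CPM in F-stamen, against 5218, 5259.6 and 5487 CPM in M-stamen. Under the alternatives 17 to 25 loci were higher and 1 to 3 lower. Those that rose included pollen receptor-like kinases, receptor kinase ANXUR1, Rop guanine nucleotide exchange factors and pectate lyase P59, which act in pollen tube growth in Arabidopsis or tomato. The sugar transporter STP10 (LITCHI031367) had 7.26, 5.18 and 7.17 CPM in F-stamen, against 1.49, 1.295 and 0.638 CPM in M-stamen (log2 fold change 2.52, SE 0.43, edgeR FDR = 8.89e-05), and its m-stamen mean was 19.2 CPM. A Rop exchange factor (LITCHI027619) had 5.42, 6.22 and 4.76 CPM in F-stamen and 0.424, 0.612 and 1.07 CPM in M-stamen (log2 fold change 2.94, SE 0.37, edgeR FDR = 3.19e-06). Its mean in F-carpel, 40.2 CPM, was above that of either stamen. Pollen-specific protein C13 (LITCHI010442) went the other way, with 306, 314 and 322 CPM in F-stamen and 615, 675 and 637 CPM in M-stamen (log2 fold change -1.03, SE 0.06, edgeR FDR = 1.06e-10). That locus was high in carpels too, at 553 CPM in F-carpel, and lost its call under 4 alternatives, among them that without M-stamen replicate 2 (log2 fold change -0.99).

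**Figure D3:**
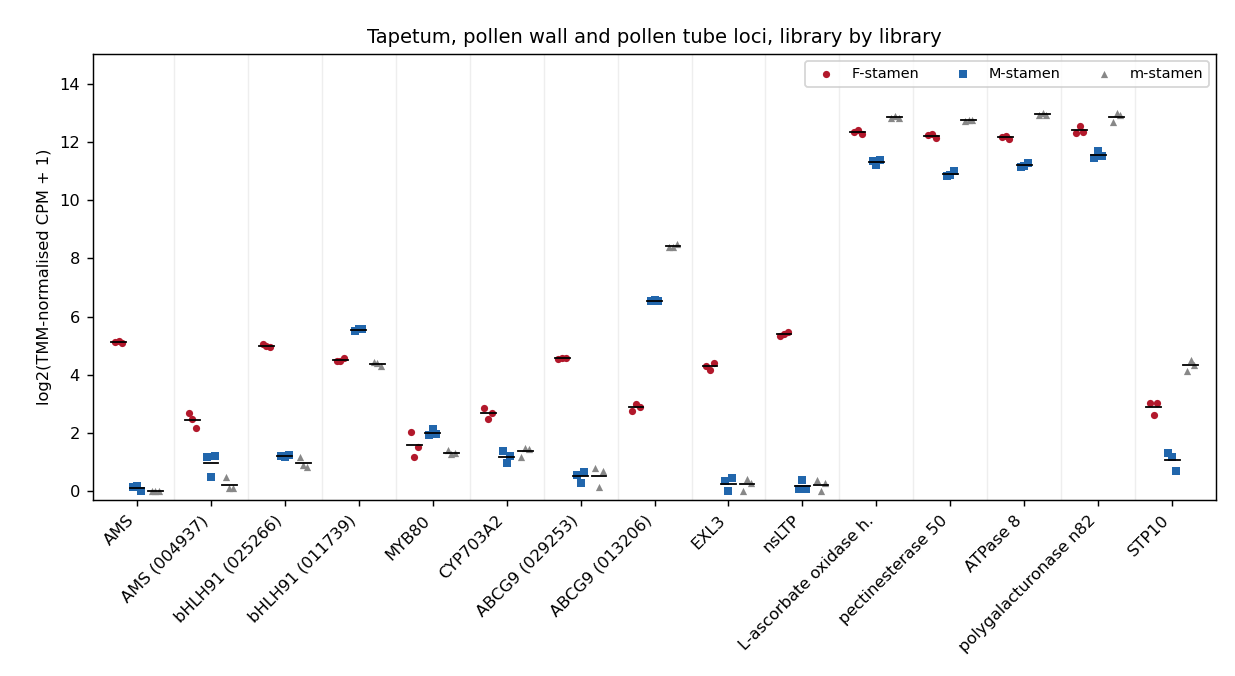
Levels of tapetum, pollen wall, pollen tube and surface lipid loci, and of loci most counted in F-stamen, as log2 of TMM-normalised CPM plus 1. Each point is a library, with F-stamen in red circles, M-stamen in blue squares and m-stamen in grey triangles, and bars are means of 3. AMS, bHLH91 (LITCHI025266), ABCG9 (LITCHI029253), EXL3 and the lipid-transfer protein (nsLTP) are high only in F-stamen among the stamens, while the L-ascorbate oxidase homolog, pectinesterase 50, ATPase 8 and the polygalacturonase are lower in M-stamen than in the other stamens.

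Genes of pectin modification were lower more often than higher in F-stamen, while their summed level was higher. Of 133 loci tested 21 were called higher in F-stamen and 33 lower (15.8% and 24.8%, against 10.6% and 8.1% over all loci), with a median log2 fold change of -0.07, and the summed level was 25529, 26693 and 25180.2 CPM in F-stamen, against 15599, 16147 and 16516 CPM in M-stamen. Pectinesterase 50 (LITCHI020207) and the polygalacturonase newGene_82 alone averaged 4725 ± 239 and 5387 ± 476 CPM in F-stamen, against 1888 ± 117 and 2990.0 ± 257 CPM in M-stamen (SD, n = 3 each). A pectinesterase with an inhibitor domain (LITCHI004229) had 159, 162 and 159 CPM in F-stamen and 22.9, 24.4 and 23.6 CPM in M-stamen (log2 fold change 2.76, SE 0.15, edgeR FDR = 8.41e-11). Pectinesterase 2 (LITCHI025513) had 11.9, 10.2 and 9.05 CPM in F-stamen, against 0, 0 and 0.134 CPM in M-stamen (log2 fold change 7.69, SE 0.99, edgeR FDR = 8.66e-06). A polygalacturonase, LITCHI015579, had 9.95, 13.9 and 11.4 CPM in F-stamen and 297, 296 and 309 CPM in M-stamen (log2 fold change -4.68, SE 0.10, edgeR FDR = 4.98e-16). None of these groups overlapped.

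Genes of wall loosening, a process that lets filaments and anthers expand, were more often called lower than higher in F-stamen. Of 49 loci tested 17 were called lower (34.7%, against 8.1% over all loci) and 7 higher (14.3%, against 10.6%). Their median log2 fold change was -0.19, and -0.60 to -0.01 over the alternatives. Expansin-A4 (LITCHI024918), of the proteins that loosen cellulose networks, had 13.9, 10.1 and 13.7 CPM in F-stamen, against 460.3, 454 and 416 CPM in M-stamen (log2 fold change -5.14, SE 0.13, edgeR FDR = 1.88e-15). Expansin-A11 (LITCHI010074) had 38.1, 40.8 and 42.6 CPM in F-stamen and 273, 276 and 281 CPM in M-stamen (log2 fold change -2.77, SE 0.07, edgeR FDR = 1.34e-15). Expansin-A9 loci moved the other way: LITCHI018687 had 96.8, 99.7 and 96.7 CPM in F-stamen and 19.6, 27.1 and 24.7 CPM in M-stamen (log2 fold change 2.04, SE 0.14, edgeR FDR = 1.15e-09). LITCHI018685 of the same annotation rose too (log2 fold change 2.15), and both were higher still in m-stamen, at 181 and 104 CPM.

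Lignin and secondary walls stiffen the anther before it opens, and these genes were mostly lower in F-stamen where called. In the list of anther and secondary wall genes 14 of 63 loci tested were called lower (22.2%, against 8.1% over all loci) and 2 higher (3.2%, against 10.6%), with a median log2 fold change of -0.38. Limma on log2(FPKM + 1) called 6 lower, and 1 was higher without F-stamen replicate 3 or M-stamen replicate 3. Among lignin and phenylpropanoid genes 14 of 70 loci tested were called lower and 4 higher, against 8.1% and 10.6% over all loci. Their median log2 fold change was -0.03, against 0.18 over all loci, and it ranged from -0.27 to 0.02 over the alternatives. Laccase-7 (LITCHI018291), of the enzymes that polymerise lignin or oxidise flavonoids, had 15.6, 13.9 and 14.5 CPM in F-stamen, against 207, 179 and 203 CPM in M-stamen (log2 fold change -3.74, SE 0.08, edgeR FDR = 3.13e-16). Its M-carpel mean, 1271 CPM, was above that of either stamen. Cinnamyl alcohol dehydrogenase 1 (LITCHI001532), which makes lignin monomers, had 102, 92.97 and 109 CPM in F-stamen and 1120.5, 1153 and 1193 CPM in M-stamen (log2 fold change -3.51, SE 0.07, edgeR FDR = 2.13e-16). LITCHI021290, annotated as a shikimate hydroxycinnamoyltransferase, had no count in F-stamen and 10.4, 9.82 and 10.3 CPM in M-stamen, at least 321.7-fold lower at a floor of 3 counts over the group. This locus was higher in M-carpel and m-carpel, at means of 37.9 and 37.7 CPM. A caffeoylshikimate esterase (LITCHI027981) was among the few that rose, with 27.3, 30.9 and 28.9 CPM in F-stamen and 6.15, 4.605 and 5.24 CPM in M-stamen (log2 fold change 2.44, SE 0.20, edgeR FDR = 1.17e-08).

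Flavonoid genes, which colour and protect pollen and petals, were lower in F-stamen at 16 of 57 loci tested (28.1%, against 8.1% over all loci) and higher at 3 (5.3%, against 10.6%), with a median log2 fold change of -0.54. Flavonol synthase (LITCHI011187) had 98.98, 96.1 and 95.1 CPM in F-stamen, against 851, 890.0 and 864 CPM in M-stamen (log2 fold change -3.17, SE 0.05, edgeR FDR = 2.17e-17). Every F-stamen library was below every M-stamen library by a wide gap, and the m-stamen and F-carpel means were 1179 and 1362 CPM. A flavonoid glucosyltransferase (LITCHI009545) rose, with 46.6, 54.7 and 52.4 CPM in F-stamen and 13.5, 15.1 and 15.3 CPM in M-stamen (log2 fold change 1.81, SE 0.14, edgeR FDR = 7.53e-09).

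Jasmonate genes were lower in F-stamen at 14 of 45 loci tested (31.1%, against 8.1% over all loci) and higher at 2, with a median log2 fold change of -0.55, and 12 to 15 were lower under the alternatives. LITCHI001739, annotated as allene oxide synthase 3, had 3.31, 2.77 and 2.73 CPM in F-stamen and 89.3, 86.02 and 94.02 CPM in M-stamen (log2 fold change -4.93, SE 0.11, edgeR FDR = 8.36e-16). Whether this locus acts in jasmonate synthesis was not tested. MYB108 (LITCHI014298), a jasmonate-responsive regulator of stamen maturation in Arabidopsis, had 34.7, 33.7 and 32.7 CPM in F-stamen, against 423, 389.5 and 435 CPM in M-stamen (log2 fold change -3.62, SE 0.06, edgeR FDR = 2.92e-17). The groups were far apart for both, and the m-stamen means, 246 and 522 CPM, were higher than in either. 12-oxophytodienoate reductase 3 (LITCHI017545), required for anther opening in Arabidopsis and named here after its values were seen, had 47.3, 51.3 and 49.2 CPM in F-stamen and 115, 111 and 117 CPM in M-stamen and was called lower (log2 fold change -1.22, SE 0.07). The rises in this list were TIFY 4B (LITCHI014876) and a lipoxygenase (LITCHI024087), whose calls were lost under 6 and 11 alternatives, most of them with a library left out.

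Gibberellin genes were lower at 15 of 56 loci tested (26.8%, against 8.1% over all loci) and higher at 3 (5.4%, against 10.6%); limma on log2(FPKM + 1) called 9 lower. Gibberellin 3-beta-dioxygenase 1 (LITCHI017070), which makes the active hormone, had 1.01, 1.11 and 0.952 CPM in F-stamen, against 72.7, 61.3 and 72.3 CPM in M-stamen (log2 fold change -6.07, SE 0.17, edgeR FDR = 9.21e-15). Its means in M-carpel and m-carpel, 188 and 127 CPM, were above those of both stamens. Gibberellin-regulated protein 4 (LITCHI019539) had 12.9, 14.5 and 13.3 CPM in F-stamen and 78.1, 71.1 and 76.4 CPM in M-stamen (log2 fold change -2.47, SE 0.11, edgeR FDR = 5.22e-12). A DELLA repressor locus, RGL1 (LITCHI026563), had 7.13, 6.26 and 6.06 CPM in F-stamen and 2.37, 2.84 and 2.15 CPM in M-stamen, a call lost under 10 alternatives, among them each that left out a stamen library (log2 fold change 1.40, SE 0.41, edgeR FDR = 0.0086).

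Auxin genes were called equally often in both directions, 22 higher and 22 lower of 139 tested (15.8% each, against 10.6% and 8.1% over all loci), and included large single changes. YUCCA2 (LITCHI006663), a monooxygenase of auxin synthesis, had 0.367, 0 and 0 CPM in F-stamen and 58.2, 57.3 and 61.95 CPM in M-stamen (log2 fold change -8.82, SE 0.40, edgeR FDR = 6.4e-12). Another YUCCA-type locus (LITCHI011353) went the other way, with 9.64, 6.42 and 10.2 CPM in F-stamen, against 0.9196, 0.827 and 0.907 CPM in M-stamen (log2 fold change 3.30, SE 0.53, edgeR FDR = 7.55e-05). A GH3-type synthetase (LITCHI006968), which ties auxin to amino acids, had 374, 378 and 365 CPM in F-stamen and 28.2, 24.8 and 27.4 CPM in M-stamen (log2 fold change 3.80, SE 0.06, edgeR FDR = 3.07e-17). No group overlapped with its counterpart.

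Cytokinin genes were higher at 11 of 53 loci tested and lower at 7, 20.8% and 13.2% of the list against 10.6% and 8.1% over all loci. Loci annotated as the cytokinin-activating phosphoribohydrolase (LOG) rose: LITCHI010143 had 54.5, 56.8 and 61.4 CPM in F-stamen, against 1.31, 1.22 and 1.54 CPM in M-stamen (log2 fold change 5.40, SE 0.30, edgeR FDR = 9.16e-11), and LITCHI009995 had 8.48, 10.1 and 9.02 CPM in F-stamen, against 0, 0.144 and 0 CPM in M-stamen (log2 fold change 7.50, SE 1.01, edgeR FDR = 1.43e-05). Cytokinin dehydrogenase 3 (LITCHI017617), which degrades the hormone, had 23.6, 19.3 and 22.7 CPM in F-stamen and 244, 242 and 242 CPM in M-stamen (log2 fold change -3.47, SE 0.13, edgeR FDR = 5.08e-13). The LOG loci were at 1.54 CPM or less in each M-stamen library, and the dehydrogenase was high in each M-stamen library. A cytokinin hydroxylase (LITCHI009356), which acts in synthesis, fell too, with 0.735, 0.326 and 0.444 CPM in F-stamen and 3.36, 6.73 and 3.63 CPM in M-stamen (log2 fold change -3.17, SE 0.46, edgeR FDR = 1.74e-05). At a mean of at least 5 CPM, 6 members of the list were called higher and 6 lower, and limma on log2(FPKM + 1) called 8 higher and 4 lower. The summed level of the list averaged 1519 CPM in F-stamen, against 1907 CPM in M-stamen.

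Abscisic acid genes were higher at 4 and lower at 7 of 27 loci tested (14.8% and 25.9%, against 10.6% and 8.1% over all loci). NCED6 (LITCHI015114), of the enzymes that make the hormone's precursor, had 19.7, 19.6 and 17.1 CPM in F-stamen, against 138, 131 and 122 CPM in M-stamen (log2 fold change -2.80, SE 0.13, edgeR FDR = 7.52e-12). The catabolic 8'-hydroxylase LITCHI017862 had 10.9, 12.8 and 14.6 CPM in F-stamen and 84.96, 86.1 and 98.3 CPM in M-stamen (log2 fold change -2.81, SE 0.11, edgeR FDR = 8.24e-13). Another 8'-hydroxylase, LITCHI010989, rose, with 11.2, 12.8 and 11.5 CPM in F-stamen and 3.04, 3.99 and 3.86 CPM in M-stamen (log2 fold change 1.70, SE 0.19, edgeR FDR = 7.49e-07). Breakdown genes thus went in both directions. The ABI5-like signalling locus LITCHI010388 had 19.4, 19.3 and 26.7 CPM in F-stamen, against 6.69, 6.91 and 6.31 CPM in M-stamen (log2 fold change 1.72, SE 0.48, edgeR FDR = 0.00611), a call lost under 7 alternatives. Ethylene genes hardly entered the calls. Of 25 tested, 1 was called lower (4.0%, against 8.1% over all loci; 2 without F-carpel replicate 1 or 2 or any M-carpel library), an aminocyclopropane carboxylate oxidase (LITCHI017644) with 5.42, 4.79 and 6.0 CPM in F-stamen and 23.4, 29.3 and 30.9 CPM in M-stamen (log2 fold change -2.37, SE 0.19, edgeR FDR = 1.11e-08).

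**Figure D4:**
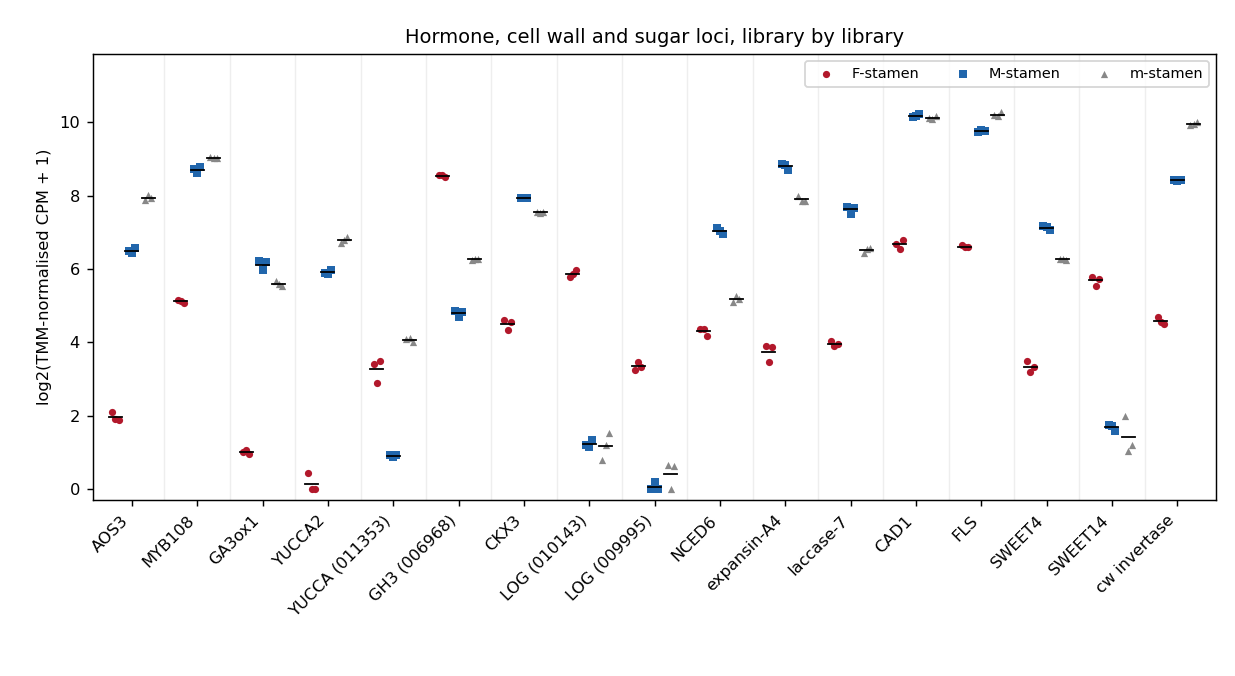
Levels of hormone, cell wall and sugar loci as log2 of TMM-normalised CPM plus 1, a point per library for F-stamen (red circles), M-stamen (blue squares) and m-stamen (grey triangles), with bars at means of 3. AOS3, GA3ox1, YUCCA2, expansin-A4, laccase-7 and the cell wall (cw) invertase are lower in F-stamen than in M-stamen, and the LOG loci, GH3 and SWEET14 are higher.

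Cell division genes were called higher in F-stamen at 40 of 157 loci tested (25.5%, against 10.6% over all loci) and lower at 2, with a median log2 fold change of 0.80 and 0.53 to 0.90 under the alternatives; limma on log2(FPKM + 1) called 26 higher. Cyclin-D3-1 (LITCHI001557), which drives entry into the cell cycle, had 9.46, 8.57 and 9.33 CPM in F-stamen, against 0.106, 0.504 and 0.336 CPM in M-stamen (log2 fold change 4.84, SE 0.30, edgeR FDR = 3.27e-10). Its F-carpel mean was 186 CPM. The members that rose further included cyclins A and B, mitotic kinesins, MCM replication factors and DNA polymerases. Kinesin KIN-12E (LITCHI015827) fell, with 23.5, 22.5 and 25.1 CPM in F-stamen and 154, 151 and 161 CPM in M-stamen (log2 fold change -2.71, SE 0.09, edgeR FDR = 8.47e-14). Of 37 histone loci 4 were called higher and 1 lower (10.8% and 2.7%, against 10.6% and 8.1% over all loci). The higher calls were 2 without F-stamen replicate 2 or 3 and 1 without F-carpel replicate 2 or M-carpel replicate 3, and the lower call was lost without F-stamen replicate 1 or 2 or M-stamen replicate 2 or 3. Among 191 genes of cytosolic ribosomal proteins 12 were called higher, 6.3% against 10.6% over all loci, with a median log2 fold change of 0.45 against 0.18. Their summed level was 23499, 24211 and 23199 CPM in F-stamen, against 17482, 17639 and 18498 CPM in M-stamen.

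Sugar supply to the anther passes through transporters and invertases, and these genes split, with 15 higher and 17 lower of 71 tested (21.1% and 23.9%, against 10.6% and 8.1% over all loci). SWEET14 (LITCHI026368), a sugar efflux carrier, had 53.9, 45.8 and 52.2 CPM in F-stamen and 2.37, 2.302 and 2.01 CPM in M-stamen (log2 fold change 4.50, SE 0.43, edgeR FDR = 2.97e-07). SWEET4 (LITCHI020515) had 10.2, 8.15 and 9.02 CPM in F-stamen, against 144, 139 and 132 CPM in M-stamen (log2 fold change -3.92, SE 0.14, edgeR FDR = 1.79e-13). The insoluble (cell wall) invertase LITCHI030803, which splits sucrose outside the cell, had 25.1, 22.6 and 21.5 CPM in F-stamen and 339.8, 336 and 343 CPM in M-stamen (log2 fold change -3.88, SE 0.16, edgeR FDR = 1.94e-12). Its m-stamen mean was 994 CPM. Among 32 aquaporin loci 4 were called higher and 4 lower (12.5% each, against 10.6% and 8.1% over all loci), and the summed level of these water channels was 3458, 3578 and 3295 CPM in F-stamen, against 5905, 5616 and 5757 CPM in M-stamen. PIP2-4 (LITCHI018583) had 19.2, 20.6 and 18 CPM in F-stamen and 89.9, 93.7 and 97.3 CPM in M-stamen (log2 fold change -2.28, SE 0.08, edgeR FDR = 2.94e-13). NIP7-1 (LITCHI014717), whose Arabidopsis counterpart is an anther channel, had 9.98, 10.5 and 9.55 CPM in F-stamen, against 0.0707, 0.504 and 0.504 CPM in M-stamen (log2 fold change 4.78, SE 0.75, edgeR FDR = 3.63e-05), and a NIP-type locus (LITCHI008218) rose as well (log2 fold change 2.41).

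Proteases, nucleases and autophagy genes, which act when the tapetum and anther wall die, were called higher at 21 and lower at 28 of 223 loci tested (9.4% and 12.6%, against 10.6% and 8.1% over all loci). Without F-stamen replicate 3, 13 were higher, and limma on log2(FPKM + 1) called 16 lower. Endonuclease 1 (LITCHI029275), of the nucleases of dying cells, had 10.3, 9.87 and 7.904 CPM in F-stamen, against 102, 116 and 109 CPM in M-stamen (log2 fold change -3.54, SE 0.09, edgeR FDR = 3.4e-15). An aspartic proteinase (LITCHI014226) had 14.6, 15.6 and 17.9 CPM in F-stamen and 2.09, 1.51 and 2.72 CPM in M-stamen (log2 fold change 2.92, SE 0.30, edgeR FDR = 3.18e-07). Terpene scent genes were higher at 4 and lower at 8 of 30 loci tested (13.3% and 26.7%, against 10.6% and 8.1% over all loci). A nerolidol synthase (LITCHI029367) had 1.898, 1.499 and 1.97 CPM in F-stamen and 24.97, 33.1 and 36.1 CPM in M-stamen (log2 fold change -4.13, SE 0.21, edgeR FDR = 2.5e-11). A myrcene synthase (LITCHI028831) had 15.98, 14.6 and 16.5 CPM in F-stamen and 0.531, 0.935 and 0.806 CPM in M-stamen (log2 fold change 4.37, SE 0.51, edgeR FDR = 1.27e-06). Photosynthesis genes were called higher at 17 of 66 loci tested and lower at 6 (25.8% and 9.1%, against 10.6% and 8.1% over all loci); limma on log2(FPKM + 1) called 2 lower, and 11 were higher without F-stamen replicate 3. The photosystem protein PsbS (LITCHI011244) had 22.9, 24.5 and 21.4 CPM in F-stamen, against 2.23, 3.38 and 3.63 CPM in M-stamen (log2 fold change 2.89, SE 0.23, edgeR FDR = 9.94e-09). A chlorophyll a-b binding protein (LITCHI028856) fell, with 6.92, 6.09 and 6.16 CPM in F-stamen and 55.7, 54.4 and 67.4 CPM in M-stamen (log2 fold change -3.21, SE 0.14, edgeR FDR = 3.49e-12), as did a Rubisco small chain (LITCHI016391, log2 fold change -1.66). Pathogenesis-related proteins were called higher at 29 and lower at 24 of 147 loci tested (19.7% and 16.3%, against 10.6% and 8.1% over all loci). Peroxidases and glutathione transferases were called higher at 18 and lower at 26 of 119 (15.1% and 21.8%, against the same shares). Heat shock genes were called higher at 4 and lower at 2 of 71 (5.6% and 2.8%, against 10.6% and 8.1% over all loci), and 1 was lower without F-stamen replicate 1 or M-stamen replicate 2 or 3.

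**Figure D5:**
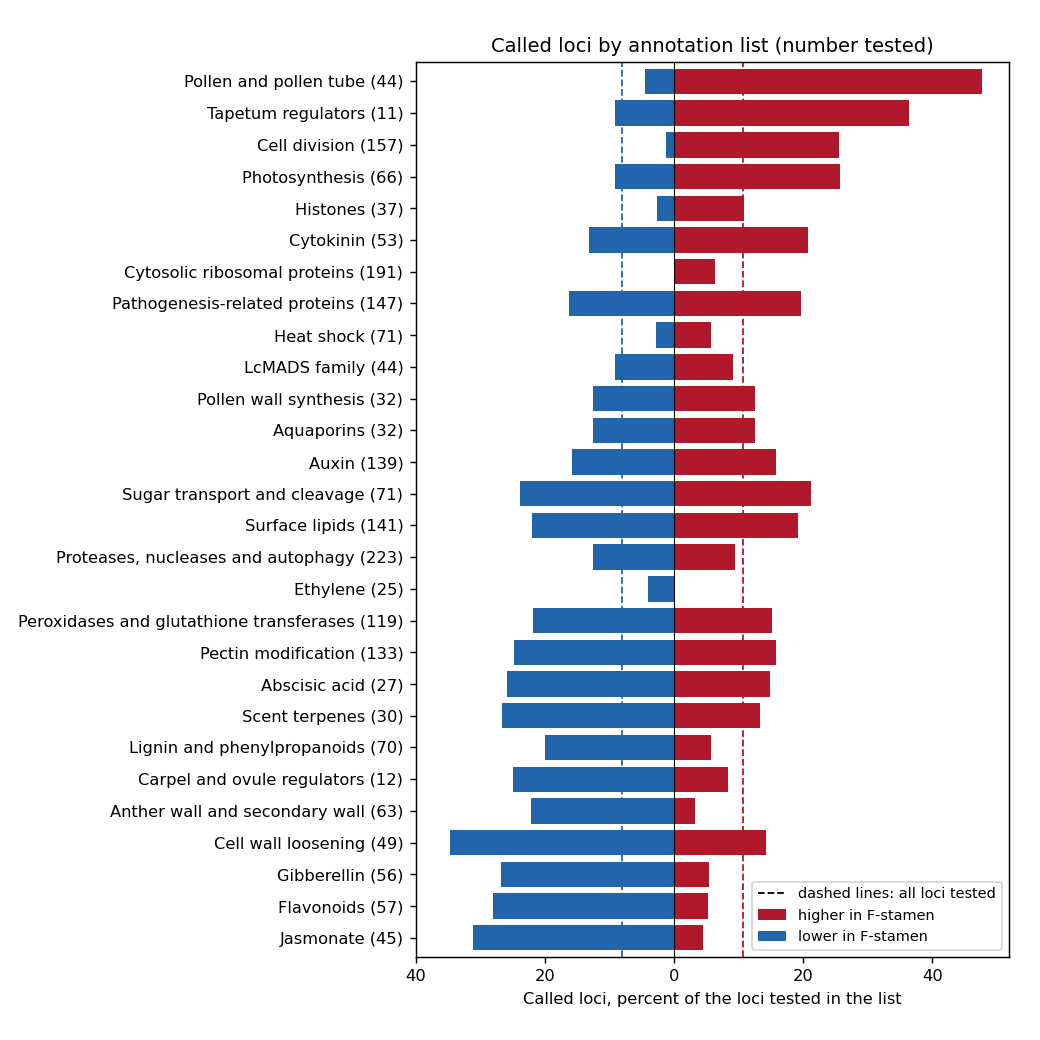
Share of the loci tested in each annotation list that were called higher in F-stamen (red, to the right) or lower (blue, to the left), in percent, with the number tested in brackets; dashed lines mark the shares over all loci, 10.6% higher and 8.1% lower. Pollen and pollen tube genes reach 47.7% higher, and jasmonate genes 31.1% lower.

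Carpel regulators were checked because both organs were dissected from the same flower. Of 17 listed loci 4 had no count in the 6 libraries and 12 were tested. Of these 12, 1 was called higher in F-stamen and 3 lower, against 10.6% and 8.1% over all loci. CRABS CLAW (LITCHI005346), a carpel and nectary regulator, had 13.7, 15.1 and 15.1 CPM in F-stamen, against 62.9, 64.5 and 62.2 CPM in M-stamen (log2 fold change -2.11, SE 0.19, edgeR FDR = 5.15e-08). In carpels its means were lower than in M-stamen, at 17.1 CPM in F-carpel, 33.9 CPM in M-carpel and 1.56 CPM in m-carpel. A SPATULA locus (LITCHI010952), of a bHLH factor of carpel margins, had 14.4, 15.9 and 14.6 CPM in F-stamen and 3.25, 2.37 and 2.59 CPM in M-stamen (log2 fold change 2.45, SE 0.15, edgeR FDR = 4.69e-10). The other SPATULA locus (LITCHI006903) had 48.04, 51.4 and 38.6 CPM in F-stamen and 39.1, 35.6 and 40.4 CPM in M-stamen, with overlapping groups. Carpel means were 15.4, 18.1 and 13.8 CPM for LITCHI010952 and 28.0, 169 and 141 CPM for LITCHI006903, in F-carpel, M-carpel and m-carpel. HEC1 (LITCHI010968), a bHLH factor of the transmitting tract in Arabidopsis, had 0.0918, 0 and 0 CPM in F-stamen and 2.19, 1.91 and 2.48 CPM in M-stamen and was called lower (log2 fold change -5.94, SE 0.75, edgeR FDR = 3.44e-06). The remaining lower call, NGA1 (LITCHI026766), had a log2 fold change of -1.60. Whether carpel tissue took part in any difference was not tested.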

How the data were processed

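Detached stamens and carpels of full-bloom flowers were sequenced as paired-end Illumina libraries (NEBNext Ultra kit). The authors trimmed reads with Trimmomatic, removed reads matching rRNA, and named HISAT2 2.0.4 and StringTie in their processing notes; for genome build, counting program and strand setting, not given in the sources used here, nothing was assumed, so reads of overlapping or antisense genes could not be told apart. The deposited table holds raw counts per gene model and the FPKM values that the authors computed with Cufflinks from uniquely mapped reads, besides DESeq2 fold changes and FDR of their own comparisons, which were not used. Counts of 37401 models were summed to 34024 loci. 0 per-sample columns lacked a sample.

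Loci were fitted over all 18 libraries by organ with edgeR 4.0.16 in R 4.3.3 (filterByExpr, TMM, quasi-likelihood F test, Benjamini-Hochberg adjustment), with 24666 loci tested. A call needed FDR under 0.01 and at least 2-fold, the study's own thresholds. Values in the text are TMM-normalised CPM. The scripts were tested on simulated data. Alternatives were DESeq2 1.42.0, limma 3.58.1 on log2(FPKM + 1) or log2(FPKM + 0.1), other scalings and filters, a replicate block, unsummed models, and each stamen or F- and M-carpel library left out.

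The comparison, the 27 annotation lists and the named-locus rule were chosen with earlier results of these data known. Lists are word searches in the table's annotations; some words were removed after the matched names, not their values, were read. Named were the 11 floral MADS genes; the 8 largest rises and 8 largest falls at 32 CPM or more with a Swiss-Prot annotation; the 5 most counted loci per organ; at most 2 called loci per list and direction at 2 CPM or more; and the tapetum and carpel loci above 2 CPM. Of these 143 loci the text gives the larger part. The numbers shared by replicates were checked for pairing as described in the closing section. The study's gene list gave the MADS names, chromosomes and coding sequences.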

Additional observations from a re-analysis of the deposited data

Results flagged for a closer look

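For the 11 floral MADS genes, the difference between F and M flowers was compared between stamens and carpels in the same edgeR fit, as the log2 difference F-stamen minus M-stamen less the difference F-carpel minus M-carpel. Over all loci tested, 30.0% passed this contrast at FDR under 0.01 and 2-fold. So did 6 of the floral MADS genes; libraries far from the rest of their group were not looked for, since each group has 3. LcPI (LITCHI011302) gave 4.30 (SE 0.19, FDR = 1.91e-12): it averaged 551 CPM in F-stamen and 937 CPM in M-stamen, but 3.23 CPM in F-carpel and 108.1 CPM in M-carpel. LcSTK (LITCHI011705) gave -3.96 (SE 0.32, FDR = 7.91e-09), with 44.5 CPM in F-carpel and 1.76 CPM in M-carpel and at most 1.17 CPM in any F-stamen or M-stamen library. LcAP3-2 (LITCHI010203) gave -3.15 (SE 0.21, FDR = 9.2e-10), being higher in F than in M flowers in both organs, by more in carpels (67.9 CPM in F-carpel and 2.90 CPM in M-carpel). LcSEP2 (LITCHI005351) gave -2.39 (SE 0.58, FDR = 0.00205) and LcSHP (LITCHI026995) -1.89 (SE 0.12, FDR = 5.25e-10), both higher in F-carpel than in M-carpel. LcSEP3 (LITCHI004634) gave 1.03 (SE 0.06, FDR = 3.86e-11), close to the 2-fold limit, and lost the call under 11 alternatives (0.86 to 1.00), among them those without F-stamen replicate 3, M-stamen replicate 1, F-carpel replicate 2 or 3, or M-carpel replicate 3.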

How the results depend on the processing

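The count of 4610 called loci stayed within 1.5 times under all alternatives but the removal of the minimum fold change (10496 loci) and a filter of at least 5 CPM (2995 loci); leaving out a library gave 4029 to 4633. The share of called loci higher in F-stamen was 56.7%, and 59.6% at FDR under 0.05, 54.2% with DESeq2, 53.4% with RLE size factors, 64.2% with total counts, 46.4% at 5 CPM or more, 61.6% and 67.1% with limma on log2(FPKM + 1) and log2(FPKM + 0.1), 50.5% with only the organs compared and 53.2% with unsummed models, and was 44.5% to 56.7% with a library left out. The median log2 fold change over all loci was 0.18, and ranged from 0.03 at 5 CPM or more to 0.28 with total counts; the cause of these shifts was not tested. Directions of loci with a small fold change are therefore relative to the scaling. Of the called loci that the naming rule picked, 107 kept the call under each alternative that tested them, 16 lost it under at least 1 and 0 changed direction. A locus that an alternative did not test was not counted as losing its call there. The uncalled SHI RELATED SEQUENCE 5 locus LITCHI010205 (log2 fold change 0.06) changed sign: it was -0.0006 at 5 CPM or more, -0.0591 with only the organs compared, and -0.294 to 0.215 with a library left out (-0.294 without F-stamen replicate 3, -0.121 without M-stamen replicate 3, and -0.078 without F-carpel replicate 2 or M-carpel replicate 3).

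No pairing of F-stamen and M-stamen by replicate number was seen: deviations from the organ means correlated at -0.0042, -0.038 and 0.0015 for numbers 1, 2 and 3. This check cannot decide whether samples of the same number shared a tree, since a weak shared effect could go unseen. With a replicate block 4352 loci were called, 55.4% of them higher in F-stamen. Leaving out loci holding 1% or more of a stamen library was planned but not run, since no locus reached that share (the largest held 0.839%). With 3 libraries per organ, loci near the floor of 3 counts (0.097 to 0.107 CPM per library) have folds that counting error limits.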
